A study of Homo sapiens with 9 samples.

Results

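The genes described are UPP1 and 9 other enzymes of pyrimidine nucleotide metabolism, 10 of the 61544 genes counted in the RNA-Seq libraries. They were matched by gene symbol, and all 10 were found. UPP1 was chosen by its difference between the libraries of wild-type and of mutated GRP78 described next, so its levels and fold changes are given as a description, without a p-value. The other 9 genes (CAD, DHODH, UMPS, CTPS1, UCK2, TK1, RRM2, TYMS and DTYMK) were chosen for their place in the pathway and not by a threshold, with earlier results of these libraries known.

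The libraries were made from H1975 cells, an established human lung adenocarcinoma cell line of epithelial type that carries a mutated EGFR gene. All 9 libraries shared a first step of 24 h of si78, an siRNA against the 3′ untranslated part of the mRNA of GRP78 (gene symbol HSPA5), the chaperone of the endoplasmic reticulum. A plasmid was then expressed for 48 h. It was the empty vector pcDNA3 (vector), a FLAG-tagged wild-type GRP78 (F-78(WT)), or the same protein with lysines of its nuclear localization signal changed to alanine (F-78(NLS Mut)). The last 2 groups are written WT and NLS Mut from here on. Each group held 3 libraries from this 1 cell line. The labels do not say whether they came from separate cultures, so the p-values measure the spread between these libraries only. There was no library without si78, so every level below is a level under knockdown of the endogenous gene. The question was which transcripts differ with the GRP78 that can enter the nucleus.

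Cells make pyrimidine nucleotides in 2 ways. In de novo synthesis, CAD carries out the opening steps from glutamine and bicarbonate to dihydroorotate, DHODH oxidizes dihydroorotate in the mitochondrion, and UMPS makes uridine monophosphate. In salvage, uridine and thymidine are taken up and phosphorylated, by UCK2 and TK1 respectively, while UPP1 (uridine phosphorylase 1) splits uridine reversibly into uracil and ribose 1-phosphate, which also lets uridine be used as a source of sugar phosphate. CTPS1 converts UTP to CTP. RRM2 is the small subunit of the ribonucleotide reductase that makes deoxyribonucleotides, TYMS makes thymidylate and DTYMK phosphorylates it further. Several of these genes are known to be transcribed mainly in cells that prepare for or carry out DNA replication.

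The libraries held between 17671055 and 27476298 reads counted on genes, and each of the 10 genes passed the filter on low counts. The check gene HSPA5 was at 358 to 391 CPM (counts per 1000000 counted reads) with vector, 5031 to 6145 CPM with WT and 4765 to 5156 CPM with NLS Mut, so both plasmids gave their mRNA. Epithelial markers were present, with KRT8 at 1448 to 1745 CPM. Of the lung markers, NKX2-1 was at 21.45 to 31.65 CPM, whereas NAPSA and SFTPB were at 1.06 to 3.28 and 0.0392 to 1.06 CPM. Of 13 markers of leukocytes, endothelium and fibroblasts, 3 were at 0 in all 9 libraries and COL1A1, a collagen chain typical of fibroblasts, was at 173 to 229.9 CPM. PDGFRB, CD14 and PECAM1 were at 6.90 to 11.7, 4.75 to 9.54 and 2.96 to 5.74 CPM. The 13 summed to 216 to 239 CPM with vector, 232 to 257 CPM with WT and 198 to 206 CPM with NLS Mut, and their part in the results was not tested. The vector libraries differed among themselves in base composition. The deviation of a library's genes from their mean log2 level over all libraries changed by 0.11 and 0.12 per 10 points of GC content in vector replicates 2 and 3, and by -0.05 in vector replicate 1. In the 6 libraries with a GRP78 plasmid this slope was between -0.08 and 0.03, so vector replicate 1 lay with them. GC content thus moved with the comparisons against vector. Values without vector replicate 1, or with a correction for GC content and length, are given where they change a result. Leaving out vector replicate 1 keeps only the vector libraries with the higher slopes. Unlike the correction, that omission does not lessen the GC difference between vector and the other groups.

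UPP1 lies at chr7:48088628-48108733 on the plus strand and CAD at chr2:27217390-27243943 on the plus strand (GRCh38, GENCODE 29). A sequence before an annotated start is shown for each, because these were the genes with the most separated levels between WT and NLS Mut. The study also follows ID2, an inhibitor that binds E-box transcription factors. The motif CANNTG (the E-box, which reads the same on both strands as a pattern) is in capitals where it occurs. The sequences are from RefSeq, build GRCh38.p14, 5′ to 3′ on the plus strand. The UPP1 stretch is chr7:48089004-48089211, which ends 42 bases before an annotated start and before the first base annotated as exon there. The CAD stretch is chr2:27217119-27217368, the 250 bases before its annotated start.
UPP1: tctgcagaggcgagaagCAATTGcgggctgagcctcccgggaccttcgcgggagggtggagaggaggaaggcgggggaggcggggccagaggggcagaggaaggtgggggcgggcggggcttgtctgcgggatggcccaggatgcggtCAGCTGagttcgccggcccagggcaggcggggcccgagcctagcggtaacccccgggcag
CAD: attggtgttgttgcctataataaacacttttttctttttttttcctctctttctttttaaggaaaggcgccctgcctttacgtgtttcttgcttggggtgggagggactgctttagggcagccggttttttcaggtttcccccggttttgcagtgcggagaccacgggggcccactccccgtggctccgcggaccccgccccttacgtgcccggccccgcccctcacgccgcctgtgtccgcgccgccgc

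The UPP1 stretch of 208 bases held 2 E-box patterns, and the CAD stretch of 250 bases held none. UPP1 has 3 annotated starts, and the full windows before them held 3, 4 and 0 such patterns. The window with 0 is that of the start at chr7:48088704, which lies upstream of the stretch shown. That stretch is thus inside the annotated span of the gene. Across the 15 RefSeq windows of 250 bases before the starts of the 10 genes, 7 windows, belonging to 5 genes, held at least 1 such pattern. Among all 35116 windows of this length, 61.8% did. The stricter form CACGTG was in 1 of the 15 windows, that of DHODH, and in 6.35% of all windows. These are letter matches in 1 window per start, and no binding was measured.

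UPP1 was lowest with WT and highest with NLS Mut. Its level was 320, 366 and 371 CPM in the 3 WT libraries, 395, 437 and 449 CPM in the vector libraries, and 508, 488 and 474 CPM in the NLS Mut libraries. No library of one group fell within the range of another. The group means were 352 ± 28.4, 427 ± 27.9 and 490 ± 17.1 CPM (SD, n = 3). On the log2 scale WT was 0.48 below NLS Mut (log2 fold change -0.48, SE 0.06), a ratio of 0.719. The difference ran in opposite directions from vector in the 2 groups, with log2 fold changes of -0.28 for WT and 0.20 for NLS Mut (SE 0.06 in each). The vector libraries enter both of these comparisons. Without vector replicate 1, the lowest of the vector libraries, the values were -0.33 and 0.14. With the correction for GC content and length the value for WT was -0.22. That for NLS Mut lay between 0.18 and 0.27 over the alternatives with all libraries. Since UPP1 was selected on the difference between WT and NLS Mut, groups that do not overlap are what the choice would give. In bulk RNA-Seq, fewer cells expressing a gene and less RNA per cell cannot be told apart.

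**Figure D1:**
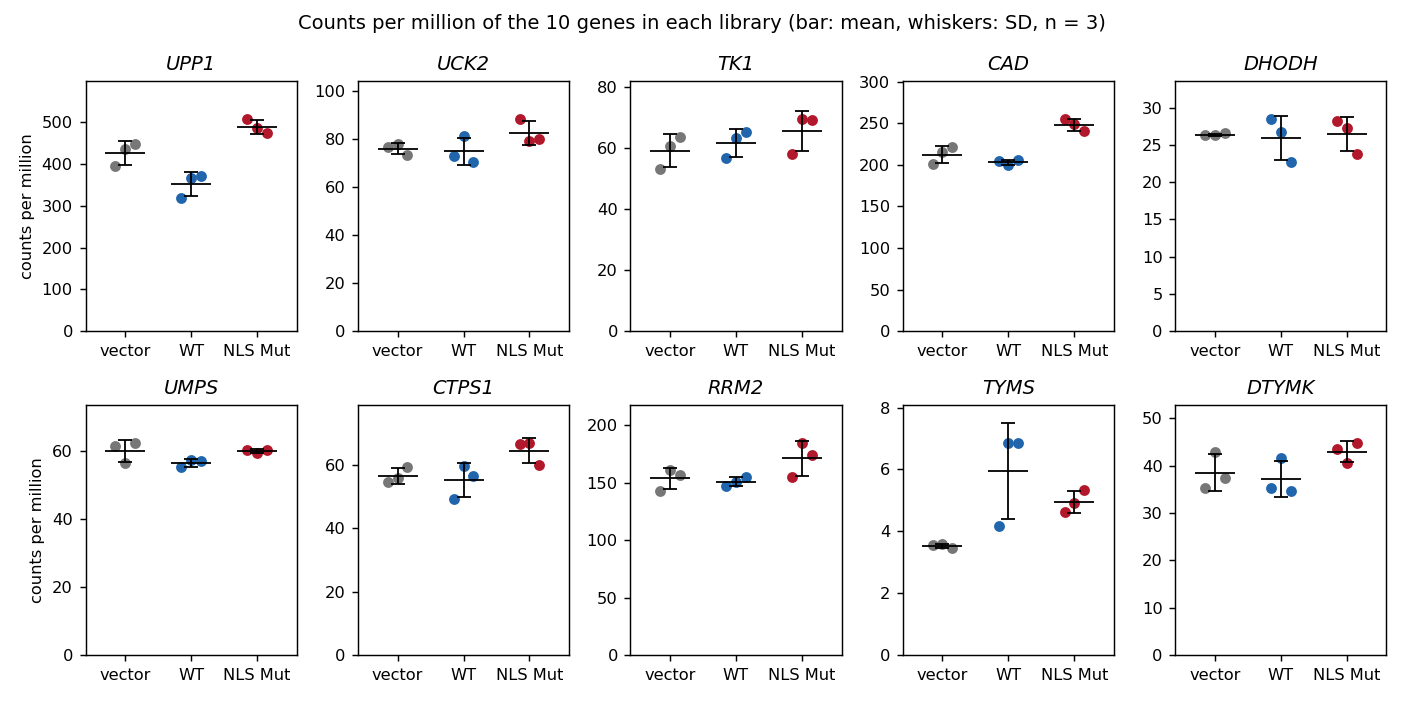
CPM (vertical axis, from 0) of the 10 genes in each of the 9 libraries, by group on the horizontal axis, with the mean as a bar and the SD as whiskers (n = 3). The 3 groups are separate for UPP1, at 320 to 371, 395 to 449 and 474 to 508 CPM, and CAD stands higher with NLS Mut, at 240 to 255 CPM, than in the other groups.

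UPP1 also had the highest level of the 10 genes per kilobase of exon. The length used was that of all annotated exons of a gene merged, which can exceed that of its mRNA. It averaged 92.4 CPM per kb over the 9 libraries, followed by TK1 at 33.4, RRM2 at 29.8 and CAD at 26.3 CPM per kb. DTYMK (16.1), UCK2 (11.0), UMPS (7.76), CTPS1 (5.11), DHODH (3.79) and TYMS (1.95 CPM per kb) followed. The ranges over libraries overlapped between TK1 and RRM2 and between RRM2 and CAD, and for no other neighbours in this order. The last place of TYMS rests on how its reads were counted, which is described further on. The place of UCK2 may also do so. The mRNA of UPP1 thus stood above that of all 3 enzymes of de novo synthesis in every library.

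CAD was the only one of the other 9 genes that passed the test, in 1 of the 3 comparisons. It stood at 204, 200 and 206 CPM with WT and at 255, 249 and 240 CPM with NLS Mut, with no overlap. CAD fell by 0.29 on the log2 scale in WT relative to NLS Mut (SE 0.06, adjusted p = 0.012, edgeR quasi-likelihood test with Benjamini-Hochberg adjustment over the 18653 genes tested). The vector libraries, at 201, 215 and 221 CPM, lay nearer to WT. Between WT and vector the log2 fold change was -0.06 (95% confidence interval -0.18 to 0.05, adjusted p = 0.738). Between NLS Mut and vector it was 0.22 (SE 0.06, adjusted p = 0.0531), again without overlap but short of the threshold of 0.05. Without vector replicate 1, which leaves the vector libraries with the higher GC slopes, this last difference was 0.18 with an adjusted p of 0.0371. With the correction for GC content and length it was 0.30 with an adjusted p of 1.96e-04. The call between WT and NLS Mut was lost when 1 library was left out in 4 of 9 cases. These were without WT replicate 1 (adjusted p = 0.0595), WT replicate 3 (0.0688), NLS Mut replicate 1 (0.153) or NLS Mut replicate 2 (0.12). The log2 fold change stayed between -0.26 and -0.30 in all 9. In the 4 fits that lost the call, 0.14% to 0.209% of all tested genes were called, against 0.504% in the main fit.

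The other 2 enzymes of de novo synthesis did not pass the test in any comparison. DHODH was at 26.3 to 26.5 CPM with vector, 22.7 to 28.4 CPM with WT and 23.8 to 28.2 CPM with NLS Mut, and its groups overlapped throughout. UMPS was at 56.3 to 62.3, 55.2 to 57.3 and 59.3 to 60.4 CPM in the same order of groups. Their differences between WT and NLS Mut were -0.03 (95% confidence interval -0.25 to 0.19) and -0.09 (-0.24 to 0.07) on the log2 scale. Neither interval reached the value of -0.29 measured for CAD, but both overlapped its own interval of -0.40 to -0.17. A difference between these genes and CAD was not tested.

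In each comparison the count of genes passing can be set beside that over all genes. Between WT and vector, 0 of the 9 genes passed, where 0.558% of all tested genes did. Between NLS Mut and vector also 0 of 9 passed, against 0.793%. Between WT and NLS Mut, 1 of 9 passed, against 0.504%. At an unadjusted p under 0.05 the counts were 1, 4 and 4 of 9, where 11.7%, 12.2% and 11.6% of all tested genes passed. With DESeq2 at an adjusted p under 0.05 they were 0, 1 and 1, against 1.40%, 2.31% and 1.69%. The groups did not overlap for 1, 4 and 4 of the 9 genes, where this held for 13.1%, 18.1% and 17.7% of all tested genes. The median log2 fold change of the 9 genes was -0.03, 0.15 and -0.14 in the 3 comparisons, against medians of 0.00, 0.00 and -0.01 over all genes. With NLS Mut, 8 of the 9 lay above vector, and 8 of the 9 lay above WT, where 49.7% and 51.1% of all tested genes did. Both of these counts use the same NLS Mut libraries and go by sign alone. DHODH enters both, with log2 fold changes of 0.005 for NLS Mut from vector and -0.03 for WT from NLS Mut.

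**Figure D2:**
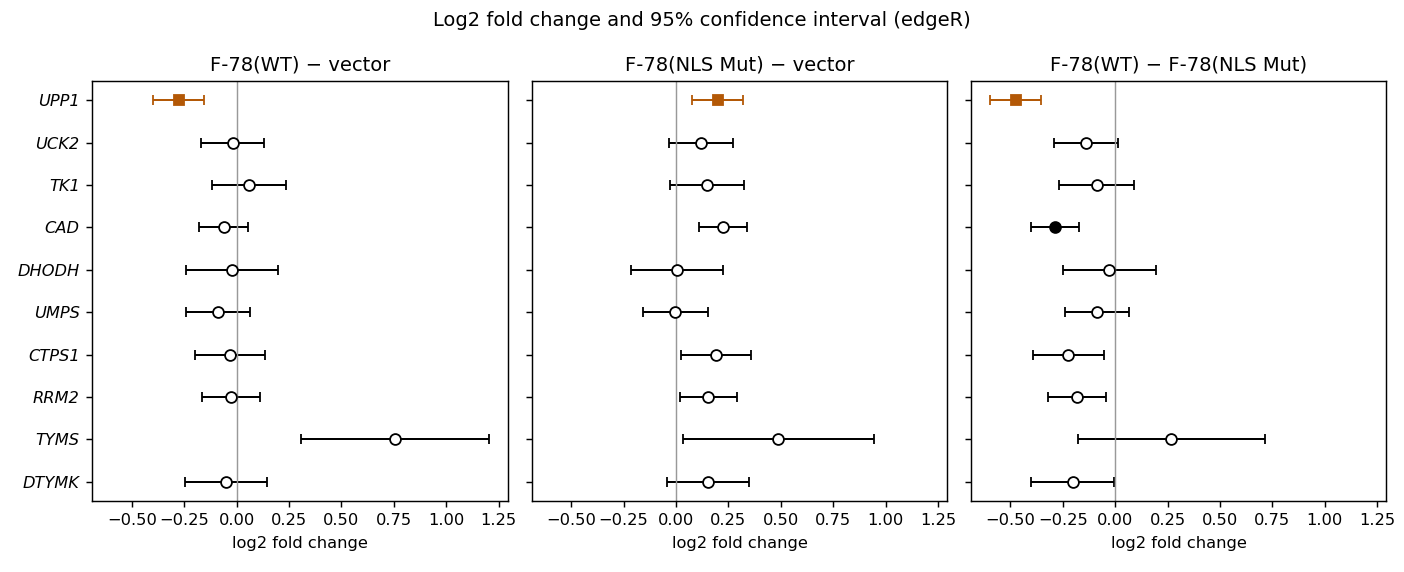
Log2 fold change (horizontal axis) of each gene in the 3 comparisons, with the 95% confidence interval from edgeR; the filled circle marks an adjusted p under 0.05 and the square marks UPP1, for which no test is given. CAD between WT and NLS Mut, at -0.29, is the 1 filled circle, and TYMS has the widest intervals.

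CTPS1, the CTP synthetase, had a pattern like that of CAD at a size that did not pass the test. It was at 54.6, 55.8 and 59.3 CPM with vector, 49.4, 59.8 and 56.6 CPM with WT, and 66.6, 67.0 and 60.1 CPM with NLS Mut. All 3 NLS Mut libraries were above the libraries of both other groups, the lowest of them by a small margin. The log2 fold change of WT from NLS Mut was -0.22 (95% confidence interval -0.39 to -0.06, adjusted p = 0.247), and it was -0.14 without WT replicate 1. That of NLS Mut from vector was 0.19 (0.02 to 0.36, adjusted p = 0.327).

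Of the salvage kinases, neither passed the test. UCK2, the uridine-cytidine kinase, was at 73.3 to 77.9 CPM with vector, 70.4 to 81.3 CPM with WT and 79.2 to 88.2 CPM with NLS Mut. Its log2 fold change of WT from NLS Mut was -0.14 (95% confidence interval -0.29 to 0.01, adjusted p = 0.492). TK1, the cytosolic thymidine kinase, was at 53.1 to 63.7, 56.7 to 65.5 and 58.3 to 69.5 CPM in the same order, with all groups overlapping and a log2 fold change of -0.09 (-0.27 to 0.09), which leaving out 1 library moved between -0.16 and -0.02. Its log2 fold change of NLS Mut from vector was 0.15 (-0.03 to 0.33, adjusted p = 0.515) and became 0.30 (adjusted p = 0.0251) with the correction for GC content and length. That of WT from vector went from 0.06 to 0.22 (adjusted p = 0.165). For UCK2, 7.56% of the exonic bases are shared with other genes, among them TMCO1 on the opposite strand. Adding the reads of both strands gave it 1.41 to 1.63 times the count used here, and a log2 fold change of -0.17 (adjusted p = 0.338).

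The enzymes of deoxyribonucleotide supply other than TYMS had values that were higher with NLS Mut, and none passed the test. RRM2 was at 143, 162 and 156 CPM with vector, 147, 151 and 154.8 CPM with WT, and 154.8, 185 and 174 CPM with NLS Mut. The WT and NLS Mut ranges of RRM2 thus met without crossing, with a log2 fold change of -0.18 (95% confidence interval -0.32 to -0.04, adjusted p = 0.248). DTYMK was at 35.3 to 42.8, 34.6 to 41.6 and 40.5 to 44.8 CPM for vector, WT and NLS Mut, and its log2 fold change of WT from NLS Mut was -0.20 (-0.40 to -0.01, adjusted p = 0.415). RRM2 shares 20.2% of its exonic bases with another annotated gene on the same strand and has 3 named pseudogenes, so reads may have been split from it.

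The level of genes of DNA replication was also higher with NLS Mut for part of a list. Of 38 genes of proliferation and its control, chosen with earlier results of these data known, 37 had a positive log2 fold change with NLS Mut against vector. The other was CDKN1A, at -0.22 (SE 0.08). Of the 38, 7 rose, namely MCM2, MCM3, MCM4 and MCM6 of the replicative helicase, its partners GINS1 and CDC45, and UHRF1. Over all tested genes 49.7% were positive and 0.295% rose in this comparison. Between WT and NLS Mut 36 of the 38 were lower with WT and 5 fell (MCM2, MCM7, CDC6, CDT1 and UHRF1), where 51.1% of all tested genes were lower and 0.204% fell. Their median log2 fold changes were 0.01, 0.23 and -0.19 in the order of comparisons used above, on the same side of 0 as those of the 9 enzymes in the last 2. The summed level of the 38 genes was 3386 to 3645 CPM with vector, 3487 to 3601 CPM with WT and 3923 to 4110 CPM with NLS Mut. The part of these genes in the values of RRM2, TK1, DTYMK, TYMS and CAD was not tested.

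TYMS, thymidylate synthase, had the largest fold change of the 9 in the comparison of WT with vector, and its value depended on which count was used. In the unstranded count it was at 3.56, 3.58 and 3.44 CPM with vector, 4.16, 6.86 and 6.85 CPM with WT, and 4.62, 4.90 and 5.33 CPM with NLS Mut. Every library with a GRP78 plasmid was above every vector library. The log2 fold change of WT from vector was 0.76 (SE 0.22, adjusted p = 0.119), and that of NLS Mut from vector was 0.49 (SE 0.22, adjusted p = 0.37). TYMS lies at chr18:657604-673578 on the plus strand, and 46.6% of its exonic bases (1150 of 2470) are also exon of ENOSF1 or TYMSOS on the opposite strand. Counting without strand leaves out a read that falls on 2 genes. The unstranded count of TYMS was 77 to 178 reads per library, while the sum of its counts in the 2 strand-specific columns was 958 to 1591 reads, 8.28 to 15.5 times as many. This ratio was at most 1.00 for UPP1, CAD, DHODH, UMPS, CTPS1, RRM2, TK1 and DTYMK.

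With the summed strands, per 1000000 reads of both columns, TYMS was at 39.5, 43.5 and 46.8 CPM with vector, 38.4, 53.1 and 49.4 CPM with WT, and 53.2, 52.8 and 50.6 CPM with NLS Mut. The vector and WT ranges then overlapped. The log2 fold change of WT from vector became 0.15 (adjusted p = 0.574), that of NLS Mut from vector 0.29 (adjusted p = 0.175), and that of WT from NLS Mut turned from 0.27 to -0.14 (adjusted p = 0.636). The summed count also takes in reads of ENOSF1 and TYMSOS where they overlap TYMS, and a library without strand cannot part them.

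**Figure D3:**
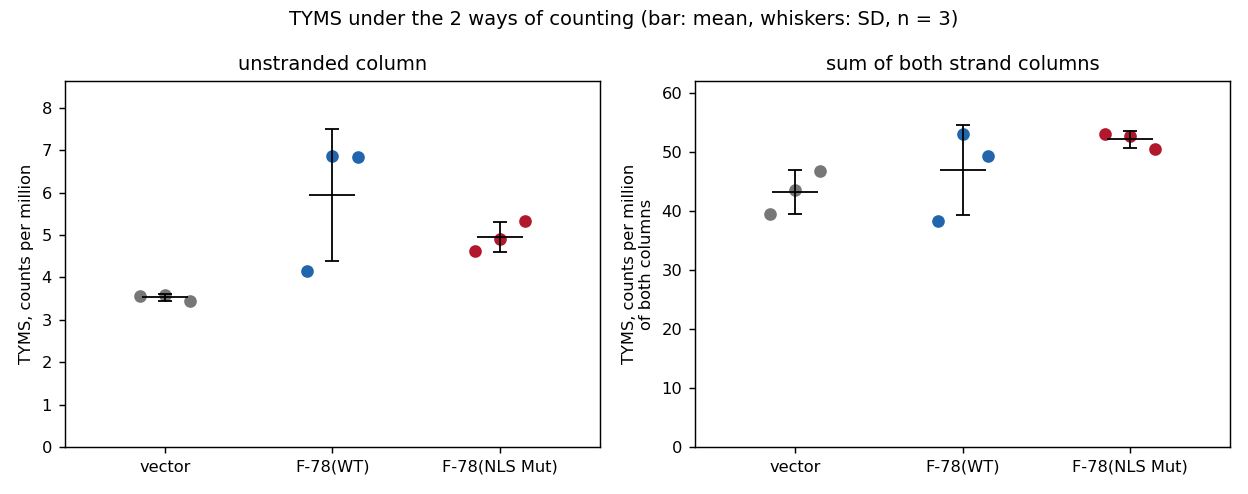
TYMS level in the 9 libraries by group, in CPM from 0, from the unstranded column (left) and from the sum of both strand columns (right), with the mean as a bar and the SD as whiskers (n = 3). The vector libraries, at 3.44 to 3.58 CPM, are below all others on the left, whereas on the right they overlap WT, which spans 38.4 to 53.1.

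Several of the enzymes have a partner with the same or a related reaction, and these were set beside them by function after their values had been seen. UPP2, the other uridine phosphorylase, had at most 6 reads in a library and was not tested, so UPP1 provided nearly all uridine phosphorylase mRNA that was counted. UCK1, the second uridine-cytidine kinase, was at 8.76 CPM per kb beside 11.0 for UCK2. The related UCKL1 was at 16.1 CPM per kb, above both per kb in the unstranded count. Without division by length the order was another, with means of 77.8 CPM for UCK2, 51.1 for UCKL1 and 23.6 for UCK1. The summed strands gave UCK2 1.41 to 1.63 times that count and are not given for UCKL1. The order of UCK2 and UCKL1 may therefore rest on how reads were counted, and it depends on the division by length. CTPS2 was at 4.97 CPM per kb beside 5.11 for CTPS1, but without division by length at 27.4 CPM beside 58.8. Mitochondrial TK2 was at 3.86 CPM per kb beside 33.4 for TK1. RRM2B, the small subunit of ribonucleotide reductase used outside S phase, was at 7.24 CPM per kb, and the large subunit RRM1 at 24.8 CPM per kb. The log2 fold changes of WT from NLS Mut were positive for UCK1 (0.17), UCKL1 (0.12), CTPS2 (0.19) and TK2 (0.15), near 0 for RRM2B (0.00) and negative for RRM1 (-0.20), and none of the 6 passed the test (adjusted p from 0.182 to 0.993). Of these, only RRM1 had the sign of its partner among the 9 genes.

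The remainder of the pathway was read from 66 further genes of nucleoside transport, salvage, nucleotide kinases, folate supply, ribose phosphate supply and catabolism, a list also chosen with earlier results known. 61 of them passed the filter on low counts. None passed the test between WT and vector or between WT and NLS Mut, where 0.558% and 0.504% of all tested genes did. Between NLS Mut and vector 1 rose, where 0.793% of all tested genes passed. In the order of comparisons used above (WT against vector, NLS Mut against vector, WT against NLS Mut), the counts at an unadjusted p under 0.05 were 6, 18 and 14 of 61, where 11.7%, 12.2% and 11.6% of all tested genes passed. DESeq2 called 1, 5 and 3, against 1.40%, 2.31% and 1.69% of all genes. The groups did not overlap for 6, 25 and 19 of the 61, where this held for 13.1%, 18.1% and 17.7% of all tested genes. The median log2 fold change was 0.05 for WT from vector, 0.01 for NLS Mut from vector and -0.01 for WT from NLS Mut, each within 0.06 of the median of all genes. Without vector replicate 1 the counts that passed were 3 (WT against vector), 8 (NLS Mut against vector) and 3 (WT against NLS Mut). Calls rose over all genes too, to 6.33%, 5.05% and 1.95% of those tested.

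The gene that rose was PRPS2, a phosphoribosyl pyrophosphate synthetase that supplies the activated ribose of both purine and pyrimidine nucleotides. It was at 78.2, 79.4 and 79.3 CPM with vector, 95.3, 82.7 and 89.5 CPM with WT, and 98.5, 100.2 and 97.2 CPM with NLS Mut, with no overlap between any 2 groups. Its log2 fold change from vector was 0.32 with NLS Mut (SE 0.07, adjusted p = 0.0183) and 0.17 with WT (SE 0.07, adjusted p = 0.287). The call was lost without vector replicate 2 or 3 or any NLS Mut library. In those fits 0.171% to 0.259% of all tested genes were called, against 0.793% in the main fit. Of 15 genes of purine synthesis, 13 had a positive log2 fold change with NLS Mut from vector, with a median of 0.12, and 1 rose, PAICS, by 0.24 (SE 0.06, adjusted p = 0.0407). Over all tested genes the shares were 49.7% positive and 0.295% risen.

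**Figure D4:**
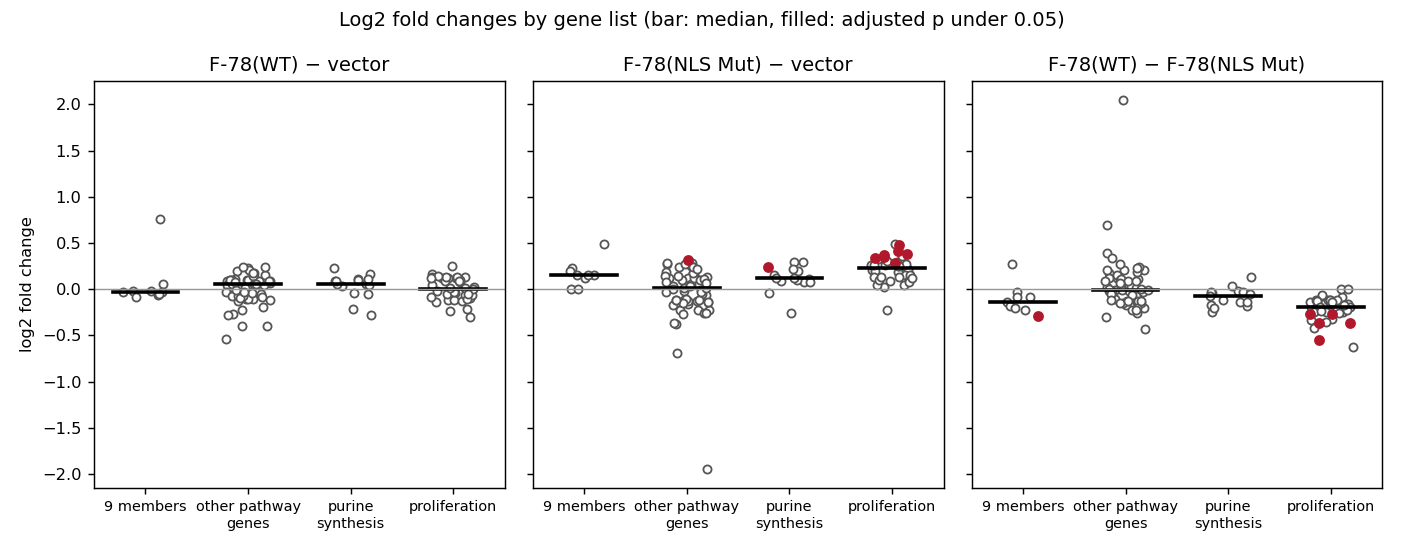
Log2 fold change (vertical axis) of the 9 enzymes, the other tested pathway genes, the purine synthesis genes and the proliferation genes (horizontal axis) in the 3 comparisons, with 1 point per gene, a bar at the median and filled points for an adjusted p under 0.05. The proliferation genes have medians of 0.23 and -0.19 in the last 2 comparisons, and the other pathway genes lie around 0; the points farthest from 0, near -1.95 and 2.05, are UPB1, which averaged under 1 CPM.

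Across the 9 libraries the level of UPP1 went with that of CAD more than with that of any other of the 9 enzymes. Pearson's r of the log2 levels was 0.88 with CAD and 0.83 with CTPS1. It was between 0.61 and 0.67 with UCK2, UMPS, RRM2 and DTYMK, 0.40 with TK1, 0.02 with DHODH and -0.19 with TYMS. The genes most like UPP1 among 15044 tested genes were ZNF574 (r = 0.97), TNPO2 (0.96), SLC3A2 (0.95), ARMC6 (0.95) and NOP56 (0.95). TNPO2 is a nuclear import receptor, SLC3A2 the heavy chain of amino acid transporters and NOP56 a core protein of small nucleolar ribonucleoproteins. These values rest on 9 libraries in 3 groups that differ in UPP1 by choice, and they are given as a description.

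MYC, a transcription factor for which CAD is a textbook target, ranked 14 in this order (r = 0.93). It was at 431, 537 and 502 CPM with WT, 603, 720 and 749 CPM with vector, and 714, 731 and 678 CPM with NLS Mut. The WT libraries were below all others, while vector and NLS Mut overlapped. The log2 fold change of MYC was -0.49 for WT from vector, 0.04 for NLS Mut from vector and -0.53 for WT from NLS Mut (SE 0.07 in each). For CAD the value for WT from vector was -0.06. A part of MYC in the levels of CAD or UPP1 was not tested.

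**Figure D5:**
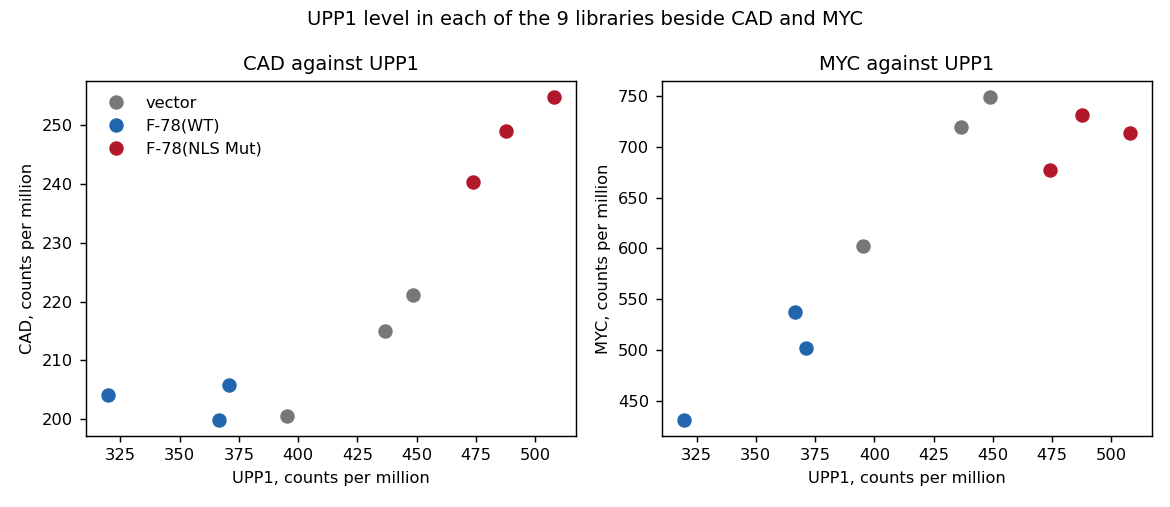
Level of CAD (left) and MYC (right) against UPP1, all in CPM on axes that do not start at 0, with 1 point per library coloured by group. The NLS Mut libraries, at 474 to 508 CPM of UPP1, have the highest CAD, and the WT libraries, at 320 to 371 CPM of UPP1, have the lowest MYC.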

How the data were processed

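Total RNA of 9 H1975 samples was sequenced. The authors deposited, per library, a table of raw read counts per gene with 1 unstranded and 2 strand-specific columns. Per the labels' processing notes, STAR 2.7.9a, DESeq2 1.36.0 and build GRCh38.p14 were used, and the annotation is not given in the sources used here. The unstranded counts were analysed, since forward reads were 50.6% to 51.9% of the strand-specific counts. Summary lines that name no gene held 27.6% to 30.7% of reads and were left out. GENCODE 29 gave symbols, lengths and positions.

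Counts were fitted with edgeR 4.0.16 in R 4.3.3 (TMM normalization, its default filter on low counts, 1 coefficient per group, all 9 libraries, quasi-likelihood test). P-values were two-sided and adjusted by Benjamini-Hochberg over 18653 genes, with a threshold of 0.05. The median biological coefficient of variation was 11.2%. Replicates of a group differed by more than sampling noise. DESeq2 1.42.0 and other settings were alternatives, and the scripts were tested on simulated data. CPM uses TMM-scaled library sizes. An exact permutation test of 3 against 3 cannot go below 0.1 and was not used.

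The members and lists were chosen with earlier results of these data known. Named genes are the 10 members, pathway genes called in at least 1 comparison (at most 10), the 5 genes most correlated with UPP1 over the libraries (mean of at least 1 CPM), HSPA5 and MYC. Genes named beside the enzymes as partners, in the proliferation and purine lists, and UPB1 were added after their values were seen.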

Additional observations from a re-analysis of the deposited data

How the results depend on the processing

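UPP1 kept its direction in every alternative and comparison run. It was selected on its difference between WT and NLS Mut in these same libraries, so the kept direction is a description and no independent support. With all libraries its log2 fold change lay between -0.30 and -0.22 (WT minus vector), 0.18 and 0.27 (NLS Mut minus vector) and -0.48 and -0.47 (WT minus NLS Mut). Leaving out 1 library at a time gave -0.33 to -0.21, 0.14 to 0.23 and -0.51 to -0.40.

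Of the other 9 members, 0 were called between WT and vector in every alternative run. Between NLS Mut and vector, where 0 were called, DESeq2 called 1 (CAD) and the replicate block 1 (CAD). The GC and length correction called 2 (CAD, TK1) and the replicate block with that correction 2. Leaving out 1 library gave 0 to 1. Over all tested genes 0.793% were called in the main fit, and 2.31%, 1.23%, 1.42% and 1.79% with these settings in turn. With 1 library left out the share was 0.171% to 5.05%. Between WT and NLS Mut, where 1 was called, the replicate block with the correction called 2 (CAD, RRM2). A threshold of 0.01 called 0, and leaving out 1 library gave 0 to 1. Over all tested genes the share was 0.504% in the main fit and 2.91% with the block and correction. With 1 library left out it was 0.14% to 1.95%.

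Of the other pathway genes, where 0, 1 and 0 were called in the 3 comparisons, DESeq2 called 1, 5 and 3. The shares over all tested genes were 0.558%, 0.793% and 0.504% in the main fit, and 1.40%, 2.31% and 1.69% with DESeq2. No filter called 1, 1 and 2, against 0.806%, 0.67% and 0.628% of all genes. The 2 compared groups alone called 0, 1 and 2 (0.144%, 0.843% and 1.8% of all genes), and the replicate block 0, 3 and 1 (1.24%, 1.23% and 1.14%). The correction called 0, 2 and 4 (1.05%, 1.42% and 2.53%), and the block with it 1, 2 and 5 (1.27%, 1.79% and 2.91%). A threshold of 0.01 called 0, 0 and 0. Leaving out 1 library gave 0 to 3, 0 to 8 and 0 to 3, the highest each without vector replicate 1. Without that library 6.33%, 5.05% and 1.95% of all tested genes were called. Over all genes that omission raised the calls for WT minus vector from 40 higher and 64 lower to 526 and 730, and DESeq2 gave 133 and 129.

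Signs turned only for values that did not pass the test: DHODH for WT minus vector with the correction (0.0016) and for NLS Mut minus vector with library size alone (-0.019), no filter (-0.0013) and the replicate block (-0.0021), DTYMK for WT minus vector with the correction (0.033) and the block with it (0.033), and TYMS for WT minus NLS Mut with both strands summed (-0.14). Leaving out 1 library turned UCK2 (-0.079 to 0.026), TK1 (-0.013 to 0.12), DHODH (-0.092 to 0.067), CTPS1 (-0.0898 to 0.044), RRM2 (-0.077 to 0.015) and DTYMK (-0.14 to 0.036) for WT minus vector, DHODH (-0.049 to 0.065) and UMPS (-0.051 to 0.019) for NLS Mut minus vector, and DHODH (-0.092 to 0.067) for WT minus NLS Mut. The cause of these turns was not tested. For TYMS the summed columns hold the reads left out as shared, and also reads of ENOSF1 and TYMSOS that cannot be parted from them.

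Replicate numbers are shared by the groups. Deviations of same-numbered libraries correlated at -0.03 to 0.11, and those of differently numbered ones at -0.11 to 0.075. The main fit did not pair libraries by number. A replicate block raised the calls over all genes in the 3 comparisons, from 0.558%, 0.793% and 0.504% to 1.24%, 1.23% and 1.14%. The counted reads limit TYMS most, at 77 to 178 a library.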
